A study of Mus musculus with 8 samples.

Results

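The mitochondrial ribosomal proteins were taken as every non-control probe of the array whose gene name starts with Mrpl or Mrps followed by a digit. This gave 106 of 55681 probes, for 76 gene names, of which 47 name the large subunit and 29 the small subunit. After the filter on dim probes, 102 of the 106 probes and 75 of the 76 genes remained, among 13824 genes tested. For each gene the brightest kept probe was used, and all 75 of these were well above background on all 8 arrays. Mrpl35 was the gene not tested, since its only probe was well above background on 2 arrays of each group. The names Mrp63 and Ict1, for Mrpl57 and Mrpl58, do not match the rule and are described below with the other mitoribosomal proteins of different names.

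RNA came from C2C12 cells, an immortalised mouse myoblast line that fuses into myotubes, on day 4 of differentiation. Of the 8 samples, 4 received a control siRNA and 4 an siRNA against macroH2A1.1. This is the form of the histone variant macroH2A1 that can bind ADP-ribose derivatives of NAD+. No other allele or agent separates the groups in the labels, where one field of the treated samples reads as a macroH2A knockout but the titles speak of an siRNA, which was followed. Replicates are biological per the design text, without word on how cultures were set up, so the spread behind each p-value is that between samples and may be technical. Each sample was hybridised to 1 single-colour array, and the count of 8 arrays sets the precision. Each column of arrays on the slide held 1 group, so siRNA and array column cannot be told apart.

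The mitoribosome translates the few messages encoded in mitochondrial DNA, all of them for core subunits of the respiratory chain and ATP synthase. Its proteins are encoded in the nucleus, made in the cytosol and imported, and many descend from bacterial ribosomal proteins while others exist only in mitochondria. The small subunit holds the messenger RNA and its decoding site, the large subunit forms the peptide bond, and skeletal muscle, rich in mitochondria, depends on both.

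Values below are log2 intensities relative to each array's 75th percentile, differences are macroH2A1.1 siRNA minus control siRNA on that scale, and the adjusted p is limma's over all genes tested, with a threshold of 0.05. Of each array's 59305 spots, 46.9% to 49.8% were well above background and none was saturated. All 3 probes of the targeted gene, Macroh2a1, were lower with non-overlapping groups, by -1.42, -0.99 and -1.11, which left 37.4% to 50.5% of the control intensity. Adjusted over single probes instead of genes, limma's p was 0.115, 0.041 and 0.041. Which splice form these probes read was not settled here. All 12 myotube markers passed the filter on dim probes. The siRNA replicate 2 stood apart on the first principal component (60.3, the others between -27.5 and 8.02). The median of the members is also given without it, and no fit without it is given for the other gene lists.

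The mitoribosomal genes as a set lay slightly higher with macroH2A1.1 siRNA, and none passed the threshold when samples were compared as independent. The median difference of the 75 genes was 0.11, a factor of 1.08, against 0.00 for all genes tested. The difference was above 0 for 64 of the 75 genes (85.3%), against 50% of all genes. It stayed within 0.2 in either direction for 61 genes, and the extremes were factors of 1.26 for Mrps25 and 0.838 for Mrpl28.

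No member passed without pairing, where 0.0217% of all genes did (3 genes), and the lowest adjusted p of a member was 0.195. At an unadjusted p under 0.05, 10 members were higher (13.3%) against 6.29% of all genes, and 1 was lower (1.33%) against 5.75%. The replicate numbers paired the samples, and with the number as a block Mrps25 and Mrps7 passed in the higher direction (2.67% of members) against 4.07% of all genes. No member passed in the lower direction, against 3.87% of all genes.

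The 2 groups did not overlap, with siRNA arrays higher, for 13 members (17.3%), against 4.25% of all genes. They did not overlap with siRNA arrays lower for 2 members (2.67%), against 3.7%. The 13 were Mrpl15, Mrpl20, Mrpl21, Mrpl40, Mrpl48, Mrpl51, Mrpl53, Mrpl54, Mrpl55, Mrps2, Mrps7, Mrps25 and Mrps28, and the 2 were Mrpl28 and Mrpl43. Centred on each array's median in place of the 75th percentile, these counts were 6 higher and 0 lower, against 3.41% and 2.87% of all genes. In all 4 pairs, 37 members were higher (49.3%) against 19.3% of all genes, and 4 were lower (5.33%) against 18.1%.

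**Figure D1:**
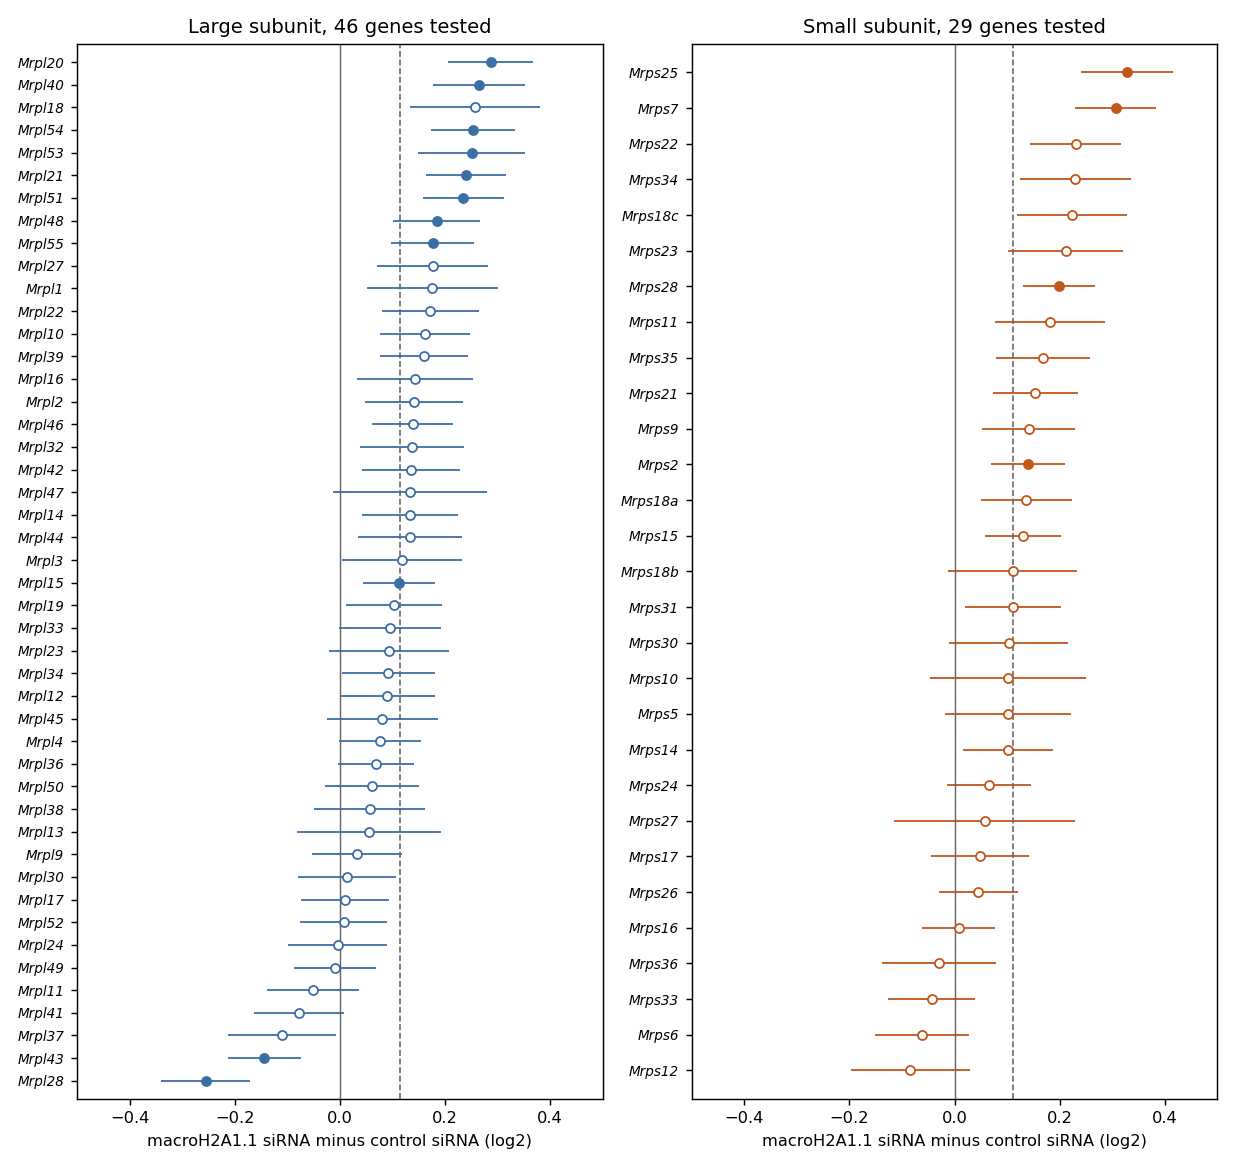
Difference between macroH2A1.1 siRNA and control siRNA (log2, horizontal axis) for the 46 large-subunit and 29 small-subunit genes tested, with bars for the standard error from limma; filled points mark genes whose 2 groups of 4 arrays do not overlap, and dashed lines the subunit medians (0.12 and 0.11). Most points lie between 0 and 0.3, and 15 of the 75 are filled.

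Arrays differed in the level of the whole set. The median of the 75 genes, each set against its own mean over the 8 arrays, was -0.12, -0.08, 0.01 and -0.06 in control replicates 1 to 4. In siRNA replicates 1 to 4 it was 0.09, 0.09, 0.07 and 0.00. Every siRNA array lay above the control of its number, but control replicate 3 lay above siRNA replicate 4, so the groups overlapped. The median difference within pairs 1 to 4 was 0.19, 0.14, 0.06 and 0.08, against 0.03, -0.01, -0.03 and 0.01 for all genes. The difference was above 0 for 67, 60, 48 and 56 of the 75 genes in these pairs. Without siRNA replicate 2 the median was 0.11 with 65 of 75 above 0, and without control replicate 3 it was 0.16.

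**Figure D2:**
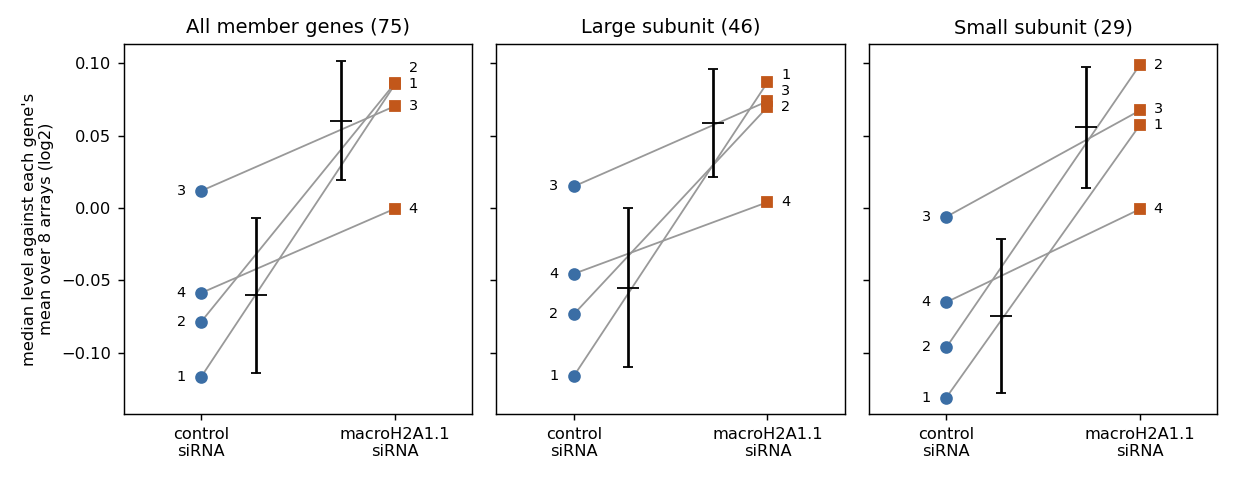
Median level of the member genes on each array (log2, each gene against its mean over 8 arrays), for all 75 genes, the 46 of the large and the 29 of the small subunit; circles are control siRNA, squares macroH2A1.1 siRNA, numbers the replicates, lines join samples of 1 number, and bars are mean ± SD (n = 4). All 12 lines slope upwards, while control replicate 3 lies above siRNA replicate 4 for all genes and for the large subunit.

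Mrps25 and Mrps7, both of the small subunit, had the largest differences among the probes used for the genes and were the members that rose with pairing. Mrps25 (mS25) is found only in mitochondrial ribosomes, and Mrps7 (uS7m) is the homolog of the bacterial protein that starts the folding of the small subunit's head. Each has a pair of probes on the array, of which 30 of 60 bases are shown because the agreement between probes differs for these genes. Capitals mark AATAAA, the letters of the poly(A) signal on the probe's own strand, within the 30 bases shown only. Over whole probes, these letters were present in 24.5% of the 102 kept member probes, which include several probes of some genes. They were present in 16.5% of the single brightest probes of the 13824 genes tested.
Mrps25 transcript position 688: atgggatgaaggccagggttgccagctgct
Mrps25 transcript position 5992: ctacagagattaaaatagactcgaactata
Mrps7 transcript position 994: AATAAAtgttgagctcctgctgtcctgttg
Mrps7 transcript position 1053: gctgtttgtaatgcagtcttccattctgtg
In mm9, the build of the files, the Mrps25 probes lie on the minus strand at chr6:92124834-92124893 and chr6:92119530-92119589. The Mrps7 probes lie on the plus strand at chr11:115468609-115468668 and chr11:115468668-115468727, end to end. Exons and untranslated regions were not assigned, as no mm9 annotation was used here.

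The Mrps25 probe used for the gene, at position 688, measured 3.74, 3.72, 3.74 and 3.68 in control replicates 1 to 4 and 4.22, 4.04, 4.04 and 3.90 in siRNA replicates 1 to 4. All siRNA arrays lay above all controls, the controls within a narrow band and siRNA replicate 1 highest. The difference was 0.33 (SE 0.09), and limma's adjusted p was 0.216 for independent samples and 0.046 for paired ones. The other Mrps25 probe, more than 5 kb further along the transcript, measured -1.33, -1.19, -1.74 and -1.47 in controls and -1.29, -1.48, -1.83 and -1.79 in siRNA samples. There the groups overlapped and the difference was -0.16 (SE 0.16). The mean of both probes gave 0.08, with a paired adjusted p = 0.508.

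The Mrps7 probe used for the gene, at position 994, measured 4.39, 4.53, 4.47 and 4.50 in controls and 4.79, 4.84, 4.81 and 4.67 in siRNA samples. The groups did not overlap, and siRNA replicate 4 was the lowest of its group. The difference was 0.31 (SE 0.08), and limma's adjusted p was 0.195 for independent samples and 0.049 for paired ones. The adjacent probe measured 1.141, 1.101, 1.201 and 1.321 in controls and 1.487, 1.392, 1.387 and 1.567 in siRNA samples. These groups did not overlap either, here with siRNA replicate 4 highest, and the difference was 0.27 (SE 0.09). Leaving out any 1 of the 4 pairs ended both paired calls, with adjusted p between 0.063 and 0.178 for Mrps7 and between 0.070 and 0.160 for Mrps25. Adjusted over single probes instead of genes, the paired values were 0.054 and 0.051.

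In the large subunit the 4 largest differences were those of Mrpl20, Mrpl40, Mrpl18 and Mrpl54, and none passed either test. Mrpl20 (bL20m), whose bacterial homolog binds ribosomal RNA early in assembly, measured 5.23, 5.38, 5.19 and 5.22 in controls and 5.57, 5.58, 5.57 and 5.44 in siRNA samples. The groups did not overlap, and 3 siRNA arrays lay within 0.01 of each other. Its difference of 0.29 (SE 0.08) had a paired adjusted p = 0.053. Mrpl40 (mL40), of the central protuberance, measured 3.18, 3.21, 3.08 and 3.32 in controls and 3.52, 3.56, 3.35 and 3.43 in siRNA samples. Its lowest siRNA array lay only just above its highest control, and the difference was 0.26 (SE 0.09), with paired adjusted p = 0.068. Its other probe, 8 bases away in the transcript, gave 0.19.

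Mrpl18 (uL18m), of a family that holds the 5S RNA in bacterial ribosomes, measured 2.88, 2.76, 2.84 and 3.27 in controls and 3.18, 3.12, 3.17 and 3.33 in siRNA samples. Control replicate 4 lay above 3 of the 4 siRNA arrays, so the groups overlapped although every pair was higher, and the difference was 0.26 (SE 0.12). Mrpl54 (mL54) measured 4.08, 4.09, 3.97 and 4.00 in controls and 4.38, 4.34, 4.25 and 4.18 in siRNA samples. Its groups did not overlap, and the difference of 0.25 (SE 0.08) had paired adjusted p = 0.055. The other large-subunit genes with non-overlapping higher groups were Mrpl53 (0.25), Mrpl21 (0.24), Mrpl51 (0.23), Mrpl48 (0.18), Mrpl55 (0.18) and Mrpl15 (0.11), with paired adjusted p from 0.080 for Mrpl21 to 0.268 for Mrpl15. The other kept Mrpl15 probe, more than 2 kb further along the transcript, gave 0.33, with overlapping groups and a paired adjusted p = 0.065 over single probes. In the small subunit they were Mrps28 (0.20) and Mrps2 (0.14), at 0.086 and 0.173.

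Mrpl28 and Mrpl43 differed in the opposite direction. Mrpl28 (bL28m), a homolog of bacterial L28, measured 2.996, 3.065, 3.002 and 3.098 in controls and 2.678, 2.919, 2.699 and 2.844 in siRNA samples. All siRNA arrays lay below all controls, and the difference of -0.26 (SE 0.08) had a paired adjusted p = 0.061. Mrpl43 (mL43), found only in mitochondrial ribosomes, measured 5.43, 5.42, 5.45 and 5.46 in controls and 5.27, 5.34, 5.25 and 5.34 in siRNA samples. Its controls lay close together, all above the siRNA arrays, and the difference was -0.14 (SE 0.07), with paired adjusted p = 0.170. A further Mrpl43 probe, 140 bases away, gave -0.17. The next lowest differences were those of Mrpl37 (-0.11), Mrps12 (-0.08), Mrpl41 (-0.08), Mrps6 (-0.06), Mrpl11 (-0.05) and Mrps33 (-0.04), each with overlapping groups, and with Mrpl11 and Mrpl41 lower in all 4 pairs.

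**Figure D3:**
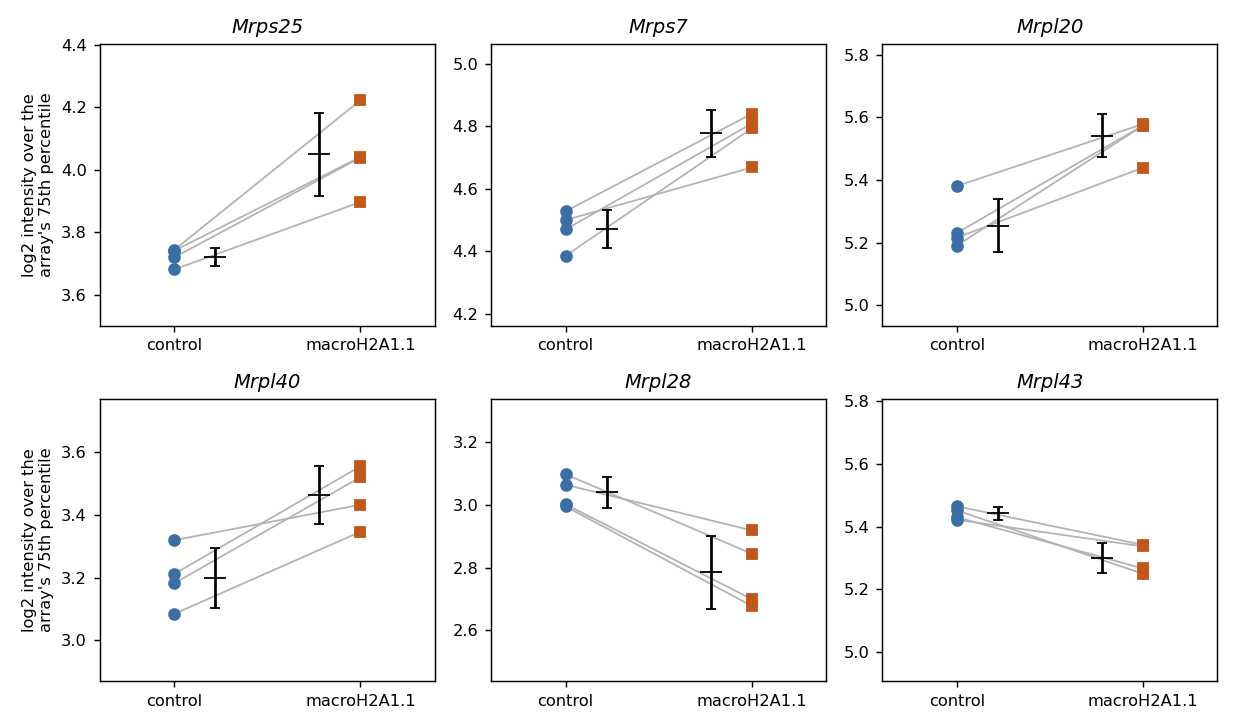
Log2 intensity relative to the array's 75th percentile on each of the 8 arrays for Mrps25, Mrps7, Mrpl20, Mrpl40, Mrpl28 and Mrpl43; circles are control siRNA, squares macroH2A1.1 siRNA, lines join samples of 1 replicate number, bars are mean ± SD (n = 4), and all panels span 0.9 units. The upper 3 panels and Mrpl40 are higher in all 4 siRNA arrays, Mrpl28 and Mrpl43 lower.

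The members were also read by subunit. The median difference was 0.12 over 46 large-subunit genes, 39 of them above 0, and 0.11 over 29 small-subunit genes, 25 of them above 0. The large minus small difference was 0.0046, and within pairs 1 to 4 it was -0.0069, -0.0037, -0.0080 and -0.045. The level of the large subunit minus that of the small was 0.015, 0.023, 0.021 and 0.020 in controls and 0.029, -0.029, 0.0064 and 0.0048 in siRNA samples, with an SD of 0.0034 in controls and 0.024 in siRNA samples (n = 4 each). The siRNA values lay on both sides of the controls, and siRNA replicate 2 was the array below 0. Groups were non-overlapping and higher for 9 of 46 large-subunit and 4 of 29 small-subunit genes, against the 4.25% of all genes given above.

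Gene names do not always follow the structure of the mammalian mitoribosome, in which Mrps30 and Mrps18a are proteins of the large subunit. Sorted by structure, the medians were 0.12 for both the large subunit (48 genes) and the small subunit (26 genes), with Mrps36, now known as a component of the oxoglutarate dehydrogenase complex, set aside. Homologs of bacterial proteins had a median difference of 0.11 (41 of 46 above 0) and proteins specific to mitochondria one of 0.13 (23 of 28 above 0). The 3 Mrps18 paralogs, which occupy separate sites, gave 0.14 for Mrps18a (SE 0.09), 0.11 for Mrps18b (SE 0.12) and 0.22 for Mrps18c (SE 0.10). Mrps30 gave 0.10 (SE 0.11) and Mrps36 gave -0.03 (SE 0.11). None of these passed a test.

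Sites of the ribosome, grouped after the values had been seen, showed small differences among themselves. Of all members, 85.3% were above 0. Among them, 5 proteins assigned to the central protuberance (Mrpl18, Mrpl38, Mrpl40, Mrpl46 and Mrpl48) were all above 0, with a median of 0.18. Another 5 proteins, assigned to the core around the peptidyl transferase centre (Mrpl2, Mrpl3, Mrpl4, Mrpl16 and Mrpl27), were also all above 0, with a median of 0.14. Medians were 0.12 for 4 proteins of the small subunit's head, 0.18 for 3 of its platform and 0.07 for 3 near the decoding centre. They were 0.09 for 6 proteins at the exit of the nascent chain and 0.09 for 3 proteins assigned to the factor-binding stalk and its base. Whether these lists hold every protein of a site was not checked. In the stalk, Mrpl12, which recruits translation factors, measured 4.80, 4.89, 5.10 and 4.97 in controls and 4.99, 5.12, 5.06 and 4.96 in siRNA samples. It was higher in 2 of 4 pairs, with overlapping groups and a difference of 0.09 (SE 0.09). Mrpl11 at the base of the stalk lay at -0.05 and Mrpl10 at 0.16.

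A total of 24 members had several kept probes, which allowed 27 comparisons of the probe used with another one. Both had the same sign in 20 comparisons and opposite signs in 7, and the gap had a median of 0.06 and a maximum of 0.49, that of Mrps25. The 7 were in Mrpl49, Mrps2, Mrps14, Mrps18b, Mrps25, Mrps26 and Mrps36. Mrpl49 gave -0.01 with the probe used and 0.18 with the other, and Mrps2 gave 0.14 and -0.04. For Mrps14 the values were 0.10 and -0.01, for Mrps26 0.05 and -0.03, and for Mrps36 -0.03 and 0.02. Mrps18b had 3 probes, whose values were 0.11, 0.18 and -0.01. Of all 102 kept probes, 83 were above 0, so equal signs are frequent even without agreement specific to a gene. None passed as a single probe with or without pairing.

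**Figure D4:**
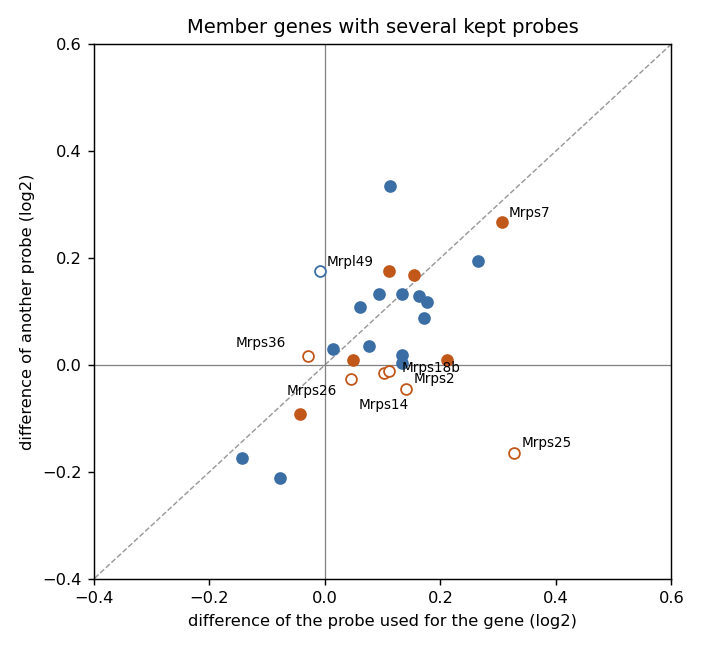
Difference (log2) of the probe used for a gene (horizontal axis) against that of another kept probe of the same gene (vertical axis), 27 comparisons in 24 genes; blue is the large and orange the small subunit, open points have opposite signs, and the dashed line marks equal values. Mrps7 lies near the line at 0.31 and 0.27, and Mrps25 lies far below it at 0.33 and -0.16.

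Some probes limit what can be read from a member. The Mrpl30 probe used maps to chr11:3370827-3370886 in mm9 and the other to chr1:37954938-37954997, and they gave 0.01 and 0.03. The Mrpl30 promoter searched below lies on chr1, and what the chr11 probe reads was not settled. Single probes of Mrpl9 and Mrpl21 were not well above background on any array, and one of Mrpl39 was so on 3 control and 2 siRNA arrays; these genes have other probes. In 10 genes the probe used spans an exon junction. Probes of Mrpl34, Mrpl50 and Mrps35, printed 10 times on each array, showed an SD between spots of 0.03 to 0.07, while the median within-group SD of members between arrays was 0.10 in controls and 0.09 in siRNA samples. Their differences were 0.09, 0.06 and 0.17.

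Promoters of the members were searched for letters bound by factors known to drive nuclear genes for mitochondria. A sequence of 300 bases around the start, from RefSeq (GRCm38.p6), matched 67 of the 76 genes. Motifs were searched on both strands as CCGGAAG (bound by GABP and other ETS factors), GCGCANGC (NRF1) and AAGATGGC (YY1), which do not overlap one another in the stretches shown. They were found in 35.8%, 31.3% and 17.9% of member genes, against 19.1%, 21.3% and 5.09% of the 10480 tested genes with a promoter. At least 1 of the 3 was found in 44 members (65.7%), against 38.5% of tested genes. Median differences were 0.13 for members with CCGGAAG and 0.11 for those without, 0.11 and 0.12 for GCGCANGC, and 0.07 and 0.12 for AAGATGGC.

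The 120 bases before the start are shown for the members that rose with pairing and for both members with lower non-overlapping groups, with motif letters in capitals.
Mrps25 promoter, chr6:92184024-92184143, minus strand: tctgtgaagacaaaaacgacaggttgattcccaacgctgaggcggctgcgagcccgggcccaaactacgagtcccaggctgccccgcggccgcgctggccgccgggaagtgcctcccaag
Mrps7 promoter, chr11:115604020-115604139, plus strand: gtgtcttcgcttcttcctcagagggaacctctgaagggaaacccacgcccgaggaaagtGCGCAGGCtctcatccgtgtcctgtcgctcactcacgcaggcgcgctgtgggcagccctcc
Mrpl28 promoter, chr17:26123383-26123502, plus strand: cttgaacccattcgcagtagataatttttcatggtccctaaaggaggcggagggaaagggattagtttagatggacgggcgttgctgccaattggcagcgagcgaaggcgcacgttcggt
Mrpl43 promoter, chr19:45006443-45006562, minus strand: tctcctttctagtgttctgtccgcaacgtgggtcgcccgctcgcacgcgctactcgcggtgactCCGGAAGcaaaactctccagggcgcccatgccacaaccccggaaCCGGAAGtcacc
Mrps7 holds the NRF1 letters there, and the YY1 letters after its start. Mrpl43 holds CCGGAAG at 2 places, and Mrps25 and Mrpl28 hold none of the 3 in the searched window. The genes encoding these factors gave -0.05 for Nrf1, -0.10 for Gabpa, -0.12 for Gabpb1 and -0.07 for Yy1, none past a test.

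Partners of the members in mitochondrial translation and the respiratory chain were read from lists. Beside each count of paired calls stands the background of 4.07% of all genes called higher, and without replicate 1 or without replicate 3 the paired fit called 0 of 13824 genes, which ended every paired call in these lists. It also called 0 of 24129 genes with no filter on dim probes. The 8 mitoribosomal proteins with other names had a median of 0.10 and all were above 0, among them Mrpl57 (0.08) and Mrpl58 (0.16). Gadd45gip1, also a large-subunit protein, rose with pairing by 0.37 (SE 0.12, adjusted p = 0.048 with pairing and 0.264 without). The 25 tested assembly factors had a median of -0.02, 11 of them above 0, with none past a test. The largest test values there were those of the ribosomal RNA chaperone Eral1 (0.21) and the pseudouridine synthase relative Rpusd3 (-0.20).

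Among 14 translation factors the median was 0.03, and 3 rose with pairing. These were the recycling factors Mrrf (0.44, adjusted p = 0.035) and Gfm2 (0.28, 0.049) and the RNA-binding Slirp (0.29, 0.044). Among 16 tested tRNA synthetases the median was 0.07, and Mars2 (0.50, 0.023), Lars2 (0.38, 0.034) and Cars2 (0.39, 0.046) rose with pairing, adjusted p in parentheses. Gfm2 and Cars2 were named after their values were seen. The 13 messages the mitoribosome translates were all above 0 with a median of 0.08 and none past a test, and the largest test values were those of ND2 (0.25, SE 0.15) and COX2 (0.14, SE 0.12). Their median within pairs 1 to 4 was 0.28, -0.13, -0.02 and 0.28, so that in pairs 2 and 3 only 1 and 6 of the 13 were above 0.

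Nuclear-encoded subunits of the respiratory chain had medians above that of the members. In complex I, 34 of 36 genes were above 0 with a median of 0.18, and Ndufb8 (0.29, paired adjusted p = 0.043) and Ndufv2 (0.32, 0.049) rose with pairing, 2 of 36 and near the background share. The lowest difference there, Ndufa6 (-2.97, SE 2.55), came from siRNA replicate 2 at -6.29. Its other siRNA arrays measured 5.67 to 5.71 and its controls 5.55 to 5.83. In complexes II to V, 39 of 42 genes were above 0 with a median of 0.20, and Uqcrc1 (0.33, 0.037), Cycs (0.31, 0.041) and Uqcr11 (0.30, 0.048, named after its value was seen) rose with pairing. The difference between these lists and the members was not tested. Among 11 biogenesis regulators the median was -0.05, with differences from -0.15 to 0.59 and none past a test. The nuclear receptor Esrra gave 0.20 with non-overlapping groups (paired adjusted p = 0.076), and the coactivator Ppargc1b gave 0.35 (0.061). Of 78 cytosolic ribosomal protein genes, 24 were above 0 with a median of -0.03 and none past a test, and Rps4x (-0.12) and Rpl28 (-0.19) led by test value. Their medians within pairs 1 to 4 were 0.05, -0.09, -0.14 and 0.08, below 0 in pairs 2 and 3, where those of the members were above 0.

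**Figure D5:**
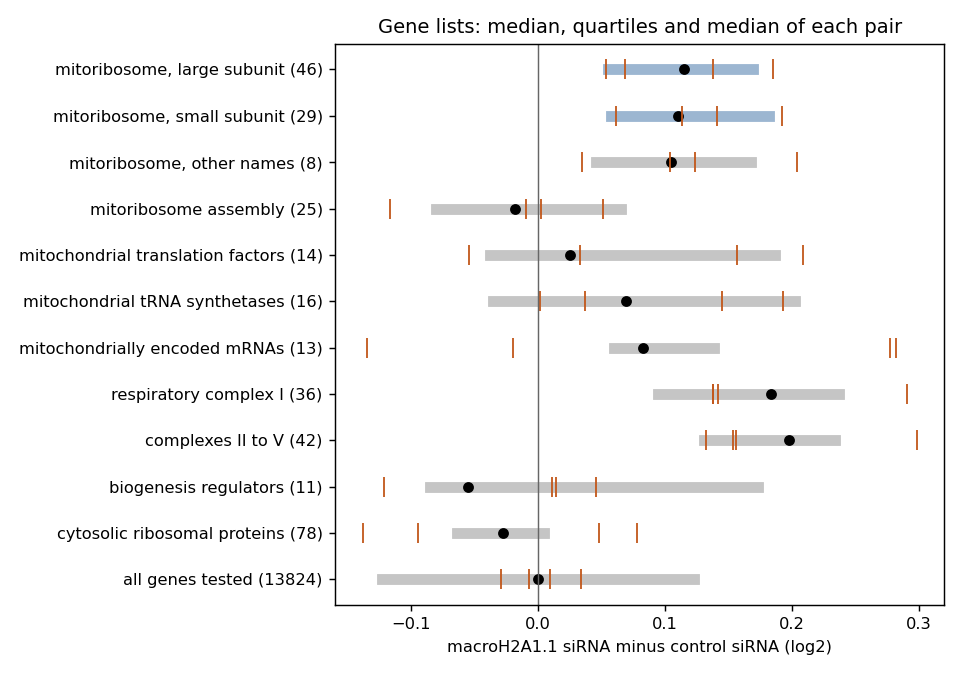
Difference between macroH2A1.1 siRNA and control siRNA (log2) in lists of genes, with the number tested in parentheses; black points are medians, bars run from the lower to the upper quartile, and orange ticks are the medians within the 4 pairs. All 4 ticks lie above 0 for both mitoribosomal subunits and for the respiratory complexes, and on both sides of 0 for cytosolic ribosomal proteins.

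Lists of other cell states and cell types were read in the same samples, and their part in the result was not tested. Myotube markers had a median difference of 0.32, all 12 above 0 and 7 past the paired test, with levels against their own mean of -0.45 to 0.07 in controls and -0.16 to 0.44 in siRNA samples. Within pairs 1 to 4 their medians were 0.36, 0.38, 0.30 and 0.31. The 15 tested interferon-response genes of 18 were all above 0 with a median difference of 2.18 and 5 past the paired test, with levels of -1.05 to -0.73 in controls and -0.62 to 2.39 in siRNA samples. Within pairs 1 to 4 the interferon-response medians were 1.13, 3.28, 3.19 and 0.29, and those of the members 0.19, 0.14, 0.06 and 0.08. Proliferation markers spanned -1.20 to 1.11 in controls and -1.10 to 1.28 in siRNA samples. Of 9 tested fibroblast markers, 1 was above 0 and 3 fell with pairing (Postn -1.01, Bgn -0.95 and Col1a2 -0.40), with levels of -0.06 to 0.31 in controls and -0.32 to 0.29 in siRNA samples. Of 8 macrophage markers, 3 were not well above background throughout either group, and the other 5 had levels of -0.25 to 0.08 and -0.18 to 0.25.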

How the data were processed

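Per the file headers, the authors read spot intensity with Agilent's Feature Extraction software (10.7.3.1), build mm9, and the processed intensity is background-subtracted. The authors' deposited series values are log2 intensities by comparison with each column's own array (r between 0.998 and 1.000), with one median of 6.29 in every column; their background handling is unknown, and they served as an alternative. Of the 8 samples, 500 ng of RNA each was labelled with Cy3, per the labels. All arrays share 1 slide, in 2 rows and 4 columns, where each column holds 1 group. Array column and siRNA group therefore cannot be told apart, and the column block, fitted as a random effect, cannot separate them.

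The log2 of the processed intensity had the 75th percentile of its array's non-control spots subtracted. Spots flagged as outliers by the authors' deposited other columns (143 to 236 per array) were left out, and spots of a probe were averaged. Probes well above background (the flag in over 0.5 of a probe's spots) on all 4 arrays of a group were kept. Names came from the RefSeq gene table by accession (27509 probes), symbol (3549) or older symbol (404), else from the file (1808), and 22411 probes had none; of the 106 member probes, 98 matched by accession. The test was limma's moderated one, two-sided (limma 3.58.1, R 4.3.3), with Benjamini-Hochberg adjustment over the genes tested and a threshold of 0.05; scripts were tested on simulated data. Python 3.11.15 with pandas 2.3.3, numpy 2.4.6 and matplotlib 3.10.9 read files and drew figures. No columns of another series were used (0).

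Samples of the same replicate number deviated together from their group means (correlations between 0.410 and 0.663; highest with another number -0.035), so by the rule of a correlation above 0.1 in each pair the numbers pair the samples. Such arrays are also neighbours on the slide, and culture and place cannot be told apart. Named members are those past a test, the 8 largest and 8 lowest differences, those with non-overlapping groups, opposite probes or no kept probe, and 7 picked for their roles; up to 2 genes per list were named by test value. The members and all lists were chosen with earlier results of these data known. Alternatives were the series values, median centring, normexp (offset 50), quantile normalization, other filters and probe rules, row, column and replicate blocks, trended robust eBayes, array weights, subunits by structure and leaving out arrays. Replicate-block fits combined with other settings were added after seeing the data.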

Additional observations from a re-analysis of the deposited data

Results flagged for a closer look

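Among 31 named members, each examined in both groups (62 examinations), 3 had 1 array far from the others by Dixon's gap criterion, and chance alone gives about 1 in 20. Mrpl11 in siRNA replicate 2 measured 4.23, below the other 3 at 4.45 to 4.47. Mrps30 in control replicate 3 measured 3.78, above the others at 3.44 to 3.48. Mrpl20 in siRNA replicate 4 measured 5.44, below the others at 5.57 to 5.58. Over all 75 members, 5 of 150 examinations met the criterion.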

How the results depend on the processing

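The median difference of the members lay between 0.083 (normexp) and 0.161 (without control replicate 3) over all alternatives, and between 0.102 and 0.161 when an array was left out (0.101 to 0.143 for a pair); that of small-subunit genes lay between 0.101 and 0.184 there. The large minus small subunit median difference, 0.0046, was -0.0193 with array weights, between -0.0398 and 0.0034 with an array left out, and -0.0224, -0.0183 and -0.0169 in the paired fit without replicates 1, 2 and 3, so its sign is not settled. No member passed under any alternative without the replicate block. With the replicate block 2 members passed (against 7.94% of all genes); with the block and normexp 8 (13.7%), with the block and the series values 7 (12.4%), with the block and quantile normalization 1 (7.41%), and with the block and no filter, single probes, the mean of probes or 3 pairs, 0. In the main setting, pairing changed no other call of the named members. Over the 11 settings with the block, Mrpl20, Mrpl21, Mrpl53 and Mrpl54 each passed in 2 in the higher direction. Mrpl40 passed in 1 in the higher direction, and Mrpl28 in 1 in the lower direction. Members with non-overlapping groups, 15 (against 7.95% of all genes), were 6 with median centring and 15 to 26 with an array left out, which raises the count for all genes too: 26 without control replicate 3 (11.6%) and 24 without siRNA replicate 4 (13.2%). Among the named members, signs turned for 3 near 0. Mrpl11 was between -0.0868 and 0.0039. Mrpl49 was 0.0833 with the mean of probes, with or without the block, and between -0.0299 and 0.0264 with an array left out. It was 0.0227 and 0.0166 in the paired fit without replicates 3 and 4. Mrps36 was between -0.0809 and 0.0277 with an array left out. Members not named turned as well. The count above 0, 64 of 75 in the main fit, was 60 with normexp and with median centring. In the paired fit without replicate 1 it was also 60. Dim probes limit Mrpl35. The cause of these shifts was not tested.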
